A study of Thermochaetoides thermophila with 9 samples.

Results

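Of the 7785 genes counted in Chaetomium thermophilum mycelium, 74 had a stepwise pattern in which transcript was most abundant in xylose, intermediate without sugar and least abundant in glucose. They were chosen on the measured values themselves. Counts were first divided by a median-of-ratios size factor per library, computed over genes with at least 10 counts in all 9 libraries, and are called scaled counts below. Every xylose library then had to exceed every reference library, and every reference library every glucose library. The mean in xylose had to be at least 1.5 times that in the reference, the mean in the reference at least 1.5 times that in glucose, and the mean in xylose at least 100. Altogether 122 genes had their libraries in this order, 84 of them also passed both folds, and 81 passed the level as well. Among these 81 were 7 of 10 genes that the rule leaves out by name, which gives the 74 members. Because the rule used all 9 libraries, the values of the members are a description and carry no test.

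The study asked which genes of this thermophilic ascomycete respond to sugar, so that their upstream regions could serve as switchable promoters. Wildtype mycelium was grown in complete medium at 50 °C and, by the methods but not the labels, in a liquid culture with glucose. It was then depleted of carbon in minimal medium, for 48 h by the labels and for a shorter time by the methods. The cultures then received 1% (w/v) D-xylose, 1% (w/v) D-glucose or, as the reference, minimal medium without sugar, each for 6 h in 3 biological replicates, and poly(A) RNA was sequenced with a strand-marking kit. Whether the reference stayed in minimal medium for these 6 h or was harvested before them differs between labels and methods. For the depletion and the final cultures, the paper's workflow figure gives a temperature above 50 °C. Libraries held between 38806913 and 52229013 counts. Reads on the rRNA gene CTHT_0000050 took 11.6 to 13.3% of the xylose libraries, 7.36 to 22.9% of the glucose libraries and 15.7 to 32.0% of the reference libraries, and glucose replicate 3 had both the fewest counts and the largest of the glucose shares. The part of these shares in the results was not tested.

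Filamentous fungi shut off genes for the use of other carbon sources while glucose is at hand, a response known as carbon catabolite repression, and xylose induces genes for the breakdown of xylan. Ribosome synthesis is among the most costly activities of a fungal cell: rRNA is transcribed and cut in the nucleolus, where assembly factors such as the U3 particle hold it, and in yeast the genes for these factors follow the growth rate. Named assembly factors, an acetylxylan esterase, enzymes that make amino acids and nucleotides, and proteins of DNA replication and repair were among the 74.

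In the median member, the mean in xylose was 4.93 times the mean in glucose, and the range was 2.56 to 40.7 times. Against the reference, the mean in xylose was 1.503 to 17.2 times as high (median 2.27), and the mean in glucose was 0.200 to 0.656 of it (median 0.473). The step between xylose and the reference was the larger of both steps in 37 members and that between the reference and glucose in the other 37. At least 10 times more transcript in xylose than in glucose was found in 14 members, and under 4 times more in 21. Both steps reached at least 3 times in 7. Mycelium was extracted as a whole, so that fewer hyphae transcribing a gene and less transcript in each of them cannot be told apart.

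Relative to a member's own mean over the 9 libraries, the median member stood at 1.86, 1.93 and 1.60 in the xylose libraries, 0.449, 0.373 and 0.257 in the glucose libraries and 0.825, 0.688 and 0.820 in the reference libraries. Glucose replicate 1 had the highest glucose value in 56 members and glucose replicate 3 the lowest in 57. In the reference, replicate 2 was the lowest in 51 members. The order was weaker in xylose, where replicate 2 was highest in 38 and replicate 3 lowest in 36. Replicates of a member differed by a median coefficient of variation of 25.3% in xylose, 31.3% in glucose and 22.9% in the reference.

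**Figure D1:**
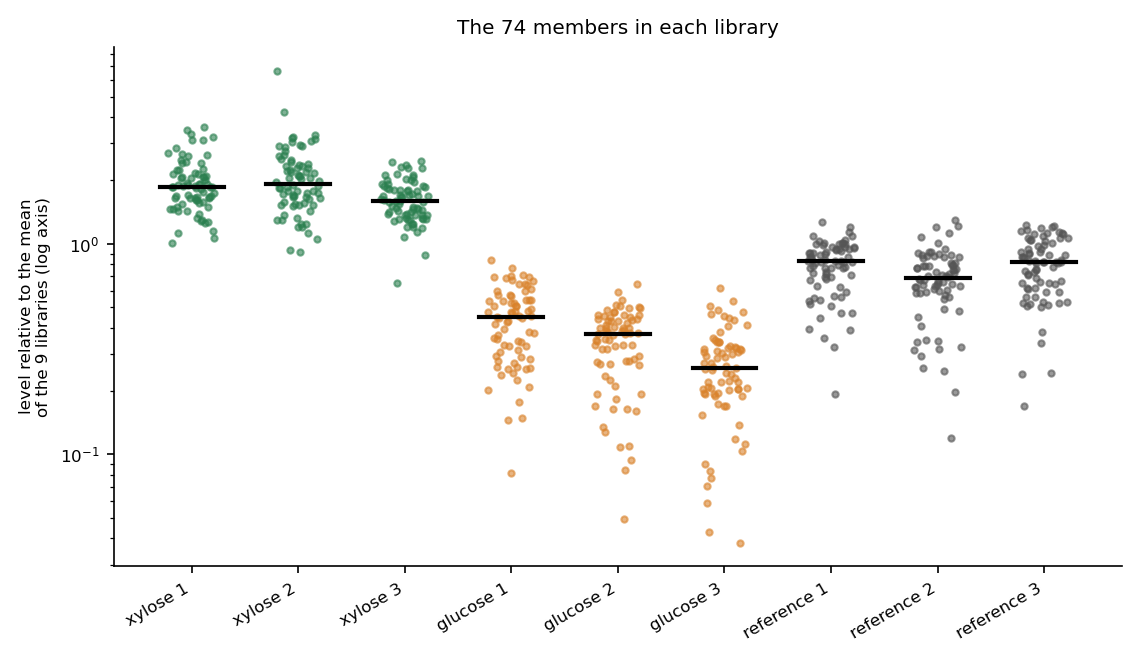
Level of each of the 74 members (points) in each library, divided by its own mean over the 9 libraries, on a log axis; black lines are medians. The xylose libraries have medians of 1.60 to 1.93, the glucose libraries of 0.257 to 0.449 and the reference libraries of 0.688 to 0.825, with glucose replicate 3 lowest.

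In the edgeR quasi-likelihood fit over all 6904 genes tested, 74 of the 74 members were called higher in xylose than in glucose, where 28.2% of all genes were. Against the reference, 67 of them were called higher in xylose, where 32.3% of all genes were, and 63 were called lower in glucose, where 25.4% of all genes were. The same libraries chose the members, so these counts say nothing further about them. Called in either direction were 50.8% of all genes between xylose and glucose (22.6% lower), 64.6% between xylose and the reference (32.4% lower) and 49.5% between glucose and the reference (24.0% higher). These shares are the background for every list of genes below, and a list's count near them is no result about that list. Higher calls made up 55.5% of those between xylose and glucose, but 48.3% with no filter on low counts and 47.1% without glucose replicate 1. Between glucose and the reference the share of higher calls was 48.6%, against 58.9% with no filter and 59.9% without glucose replicate 1, and the cause was not tested. Over all genes tested, the median log2-fold change was 0.16 between xylose and glucose, -0.05 between xylose and the reference and -0.05 between glucose and the reference.

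**Figure D2:**
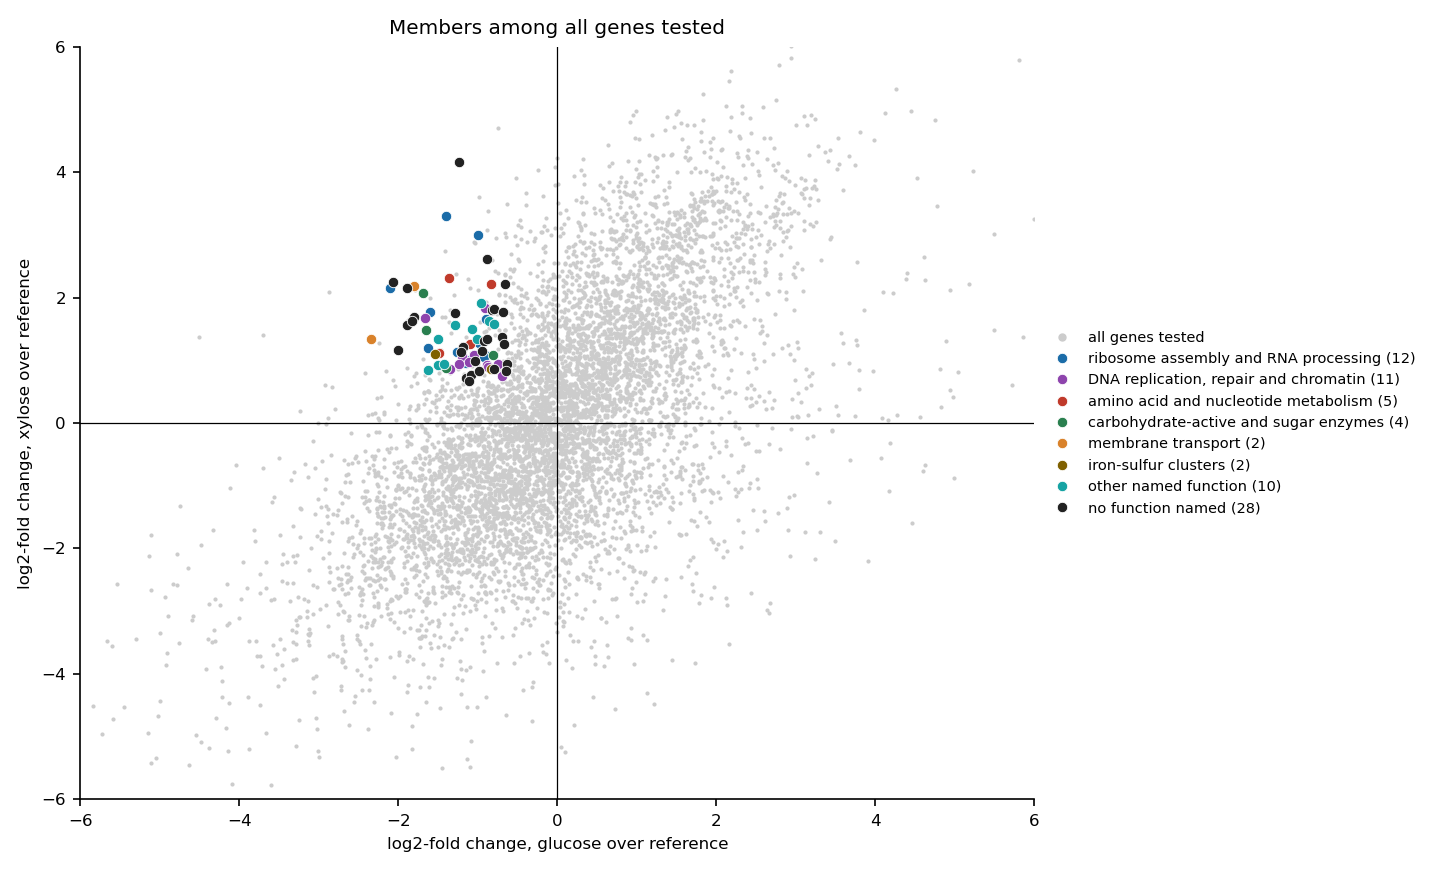
Log2-fold changes from the reference in glucose (horizontal axis) and in xylose (vertical axis), from the edgeR fit, for all 6904 genes tested (grey) and the 74 members, coloured by the function their name states, with the number of members of each. The members lie in the upper left, where the rule placed them, and 38 genes tested lie outside the axes.

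The largest ratio of xylose to glucose belonged to CTHT_0064080, for which no product name was at hand. Its scaled counts were 870.4, 5725 and 562 in xylose, 70.5, 72.6 and 32.8 in glucose and 166, 103 and 146 in the reference. Although the conditions did not overlap, xylose replicate 2 stood far above the other 2 xylose libraries. The mean in xylose was 40.7 times that in glucose with all libraries and 12.4 times without xylose replicate 2, and 17.2 and 5.20 times that in the reference. CTHT_0043230, an uncharacterized protein, had 1818, 2354 and 1719 in xylose, 218, 92.8 and 65.6 in glucose and 593, 249 and 546 in the reference. Its xylose replicates were close, and glucose replicate 1 lay above the other glucose libraries. Its ratio of xylose to glucose was 15.7, and 24.8 without glucose replicate 1, and its mean in glucose was 0.271 of that in the reference, and 0.172 without that library. ENSRNA049505315, a noncoding RNA entry without a RefSeq match, had the lowest counts of all members, 173, 239.7 and 167 in xylose, 12.2, 4.03 and 15.5 in glucose and 38.4, 33.4 and 56.4 in the reference. Its glucose values rest on few reads, and the lowest raw count of any member in any library was 4.

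**Figure D3:**
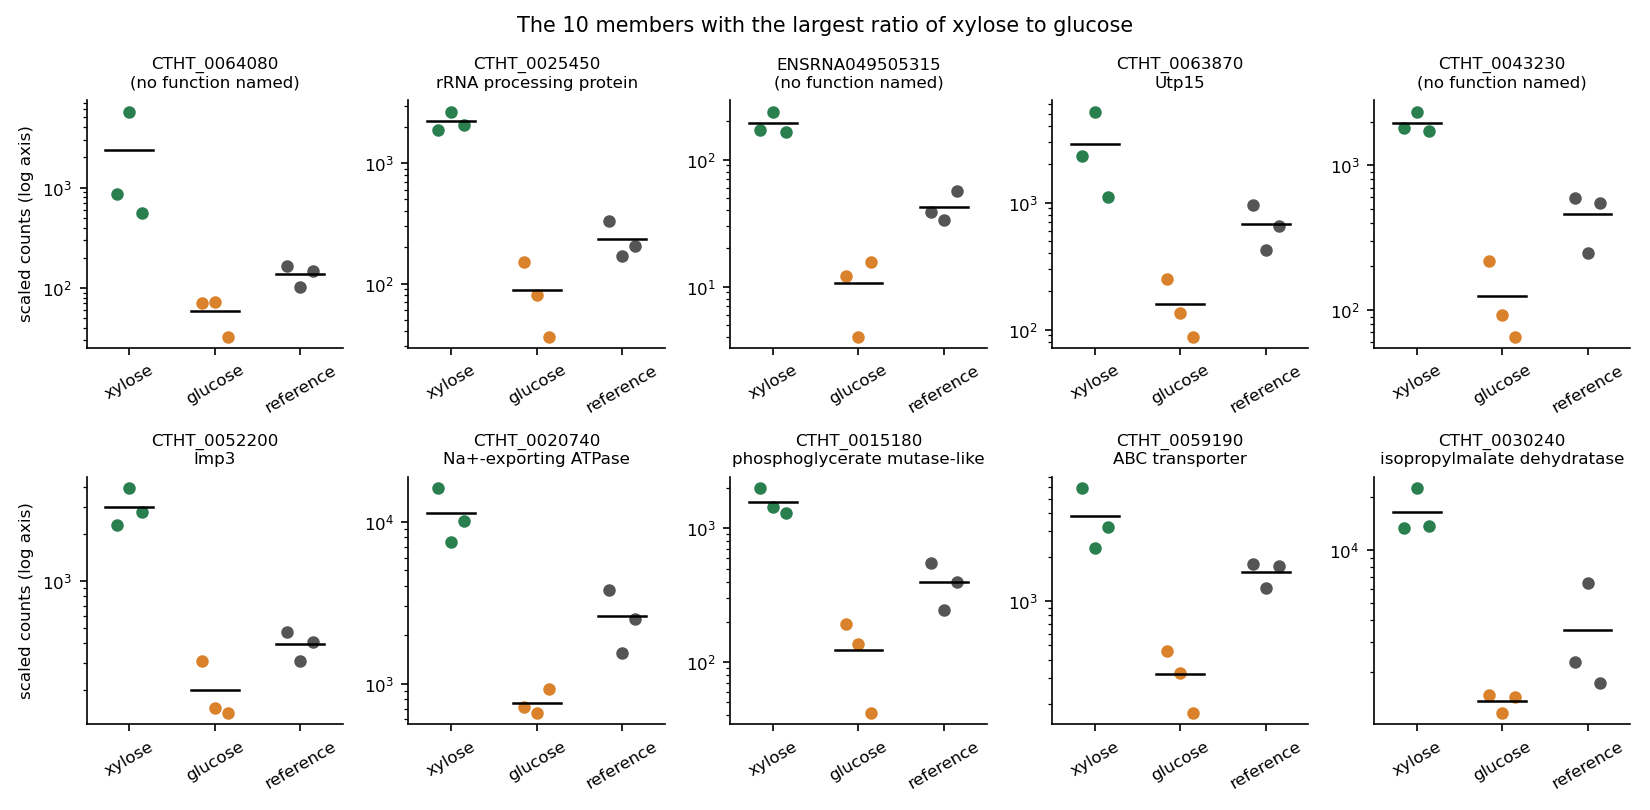
Scaled counts (log axis, a different range in each panel) of the 10 members with the largest ratio of mean xylose to mean glucose, with 1 point per library and a line at the mean of 3. Xylose libraries lie above reference libraries and reference libraries above glucose libraries in every panel, as the rule requires, and xylose replicate 2 of CTHT_0064080, at 5725, stands apart.

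Names that state a function were found for 46 members, and 12 of these belong to ribosome assembly and RNA processing, the largest group. The grouping was made by hand after the members were known, so the size of a group depends on how widely it was drawn. How many of all named genes would fall into each group was not counted. Within the group of 12, the ratio of xylose to glucose ranged from 3.66 to 25.0, with a median of 5.20. CTHT_0025450, a putative rRNA processing protein, had 1898, 2692 and 2082 in xylose, 151, 79.7 and 36.2 in glucose and 333, 169 and 206 in the reference. Its xylose libraries agreed closely and glucose replicate 1 was more than 4 times glucose replicate 3. Its mean in xylose was 25.0 times that in glucose, and 38.4 times without glucose replicate 1, and 9.43 times that in the reference. CTHT_0063870 is named for Utp15, a protein that in yeast links rRNA transcription to the U3 particle, and had 2326, 5219.8 and 1099.9 in xylose, 251, 136 and 88.0 in glucose and 952, 427 and 656 in the reference. Xylose replicate 2 was more than 4 times xylose replicate 3, and the ratio to glucose of 18.2 became 10.98 without it. Imp3 (CTHT_0052200), which in yeast holds the U3 RNA on the rRNA precursor, had 2292, 3964 and 2785 in xylose, 307, 154 and 143 in glucose and 472, 310.5 and 408 in the reference. Glucose replicate 1 of this gene nearly reached reference replicate 2, and the step between xylose and the reference, 7.59 times, was the larger.

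Nsa2 (CTHT_0009080), an assembly factor of the large subunit in yeast, had 5484, 9764 and 6226 in xylose, 2158, 1846 and 1312 in glucose and 3984, 3478 and 4176 in the reference. Sdo1 (CTHT_0026450), which in yeast takes part in the last step of large subunit maturation, had 1835, 3232 and 1966 in xylose, 742, 524 and 629.9 in glucose and 936, 1669.7 and 902 in the reference. Reference replicate 2 was close to xylose replicate 1. The ratios of xylose to glucose were 4.04 for Nsa2 and 3.71 for Sdo1. Dob1 (CTHT_0001850), the RNA helicase that feeds nuclear RNA to the exosome, had 1267, 1284 and 1016 in xylose, 144, 126 and 96.6 in glucose and 461, 181 and 457 in the reference. Its conditions were far apart except that reference replicate 2 was close to glucose replicate 1, and the mean in glucose was 0.334 of that in the reference.

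Both tRNA genes of the group act on precursor or mature tRNA. A tRNA pseudouridine synthase (CTHT_0070710) averaged 1009.9 ± 144 scaled counts in xylose, 152 ± 40.3 in glucose and 465 ± 211 in the reference (SD, n = 3 each), with reference replicate 1, at 240.1, well below the other reference libraries. Sen2 (CTHT_0069270), the endonuclease subunit that cuts introns out of tRNA, averaged 5267 ± 2169, 1317 ± 319 and 2765 ± 399 in the same order of conditions. Rpc1 (CTHT_0045300), the largest subunit of the RNA polymerase that makes tRNA and 5S rRNA, had 3881, 4924 and 3513 in xylose, 817, 685 and 746 in glucose and 1071, 1514 and 1543 in the reference. Its lowest xylose library was 2.28 times its highest reference library. La-related protein 1 (CTHT_0009940), an RNA-binding protein that in mammals controls messages for the translation machinery, averaged 5979.8 ± 1232 in xylose, 1214 ± 423 in glucose and 2866 ± 906 in the reference. For the splicing factors Prp8 (CTHT_0071250), at the heart of the spliceosome, and Slu7 (CTHT_0011780), which acts in its second step, the ratios of xylose to glucose were 3.66 and 4.49.

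Other genes with names of ribosome assembly were mostly called higher in xylose and were split between higher and lower in glucose. A list of this name, by words in the product names, held 19 genes, of which 5 were members. Of the other 14, 12 were called higher in xylose than in glucose and 0 lower, and 12 were called higher and 1 lower in xylose than in the reference (quasi-likelihood test of edgeR, p adjusted by Benjamini-Hochberg over all genes). Between glucose and the reference, 3 were called higher and 6 lower. The median log2-fold changes of the 14 were 2.20, 1.94 and 0.07 in these comparisons. Product names were at hand for only 4046 genes, taken from shortened tables in which the study lists changed or abundant genes, so the list is no full inventory, and the 14 include a gene that met the rule but is left out by name.

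In 4 genes whose products work beside members, a single pair of libraries overlapped. They were picked because their means passed both folds of the rule in these same libraries, so their p-values describe them and are no independent test. Counting genes left out by name, both folds were passed by 4 of the 14 other ribosome assembly genes and 2 of the 8 other RNA helicases. Over all 6904 genes tested, members included, 179 (2.59%) passed both folds. Imp4 (CTHT_0062900), which in yeast acts in the same complex as Imp3, had 2405, 3546 and 1831 in xylose, 419.6, 238 and 209 in glucose and 828, 343 and 657 in the reference. Glucose replicate 1 lay above reference replicate 2. Xylose exceeded glucose on the log2 scale by 3.26 ± 0.42 (edgeR, adjusted p = 0.000149), where the error is the standard error here and below, called in 9 of 9 fits that left out 1 library. Utp11 (CTHT_0060630), another protein of the U3 particle, had 1445, 1737 and 1254 in xylose, 159, 111 and 104 in glucose and 381, 157 and 357 in the reference. Glucose replicate 1 was level with reference replicate 2. Here xylose exceeded glucose on the log2 scale by 3.66 ± 0.39 (edgeR, adjusted p = 6.48e-05), likewise called in 9 of 9 such fits. The change in glucose from the reference was less stable in both. For Imp4 it was -1.10 ± 0.39 (edgeR, adjusted p = 0.0374), lost without reference replicate 1 or 3, glucose replicate 2 or 3 or xylose replicate 1, and for Utp11 -1.28 ± 0.36 (edgeR, adjusted p = 0.0125), lost without reference replicate 1 or glucose replicate 2. The assembly factor Rsa4 (CTHT_0055700), which in yeast helps remodel the large subunit precursor, had 3771, 7165 and 4848 in xylose, 807, 715 and 402 in glucose and 1897, 4147 and 1399 in the reference. Here reference replicate 2 lay above xylose replicate 1. Its level was called lower in glucose, at a log2-fold change from the reference of -1.97 ± 0.43 (edgeR, adjusted p = 0.0035), while the change in xylose, 1.16 ± 0.42 (edgeR, adjusted p = 0.0286), was lost without reference replicate 1 or 3 or xylose replicate 2. Of 8 other RNA helicases, 1 met the whole rule but is left out by name, namely the gene for Dbp6 (CTHT_0015380), with 1522, 1579 and 1424 in xylose, 183, 106 and 112 in glucose and 475, 287 and 438 in the reference. Spb4 (CTHT_0006600), which unwinds precursors of the large subunit in yeast, had 2331, 3503 and 2364 in xylose, 468, 288 and 224 in glucose and 1139.7, 327 and 999 in the reference. Glucose replicate 1 lay above reference replicate 2, and xylose exceeded glucose on the log2 scale by 3.15 ± 0.47 (edgeR, adjusted p = 0.000293), called in 9 of 9 fits that left out 1 library. The change in glucose, -1.35 ± 0.44 (edgeR, adjusted p = 0.025), was lost without reference replicate 1 or 3 or glucose replicate 2 or 3.

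Of 5 genes named for nuclear RNA decay, Dob1 was the member. The exosome subunits Rrp42 (CTHT_0002870), Rrp40 (CTHT_0008000) and Rrp4 (CTHT_0045080), which form the barrel and cap of the complex, were called higher in xylose, by log2-fold changes over the reference of 2.79 ± 0.31 (edgeR, adjusted p = 2.36e-05), 2.58 ± 0.28 (edgeR, adjusted p = 1.86e-05) and 2.57 ± 0.29 (edgeR, adjusted p = 2.47e-05). In glucose none of the 3 was called lower than in the reference. The log2-fold changes there were 0.74 ± 0.29 (edgeR, adjusted p = 0.054), 0.72 ± 0.26 (edgeR, adjusted p = 0.0407) and 0.73 ± 0.27 (edgeR, adjusted p = 0.0436), and the calls of Rrp40 and Rrp4 were each kept in only 4 of 9 fits that left out 1 library. A further gene named as an exosome protein, CTHT_0062260, was called lower in xylose, at -0.86 ± 0.24 (edgeR, adjusted p = 0.00813), kept in 9 of 9 such fits, and in glucose, at -0.72 ± 0.24 (edgeR, adjusted p = 0.0275), kept in 4 of 9.

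Enzymes of amino acid and nucleotide metabolism made up 5 members, with ratios of xylose to glucose between 4.78 and 12.0. Isopropylmalate dehydratase (CTHT_0030240), the enzyme of the second step towards leucine from 2-oxoisovalerate, had 13216, 22445 and 13683 in xylose, 1493, 1175 and 1453 in glucose and 2303, 6477 and 1734 in the reference. Reference replicate 2 stood well above the other reference libraries, and without it the mean in xylose was 8.11 instead of 4.69 times that in the reference, and the mean in glucose 0.680 instead of 0.392 of it. Homocitrate synthase (CTHT_0044760), the first enzyme of lysine synthesis in fungi, had 37479, 70324 and 39769 in xylose, 9528, 8514 and 12826 in glucose and 23454, 19225 and 22097 in the reference. The conditions were well apart, and xylose replicate 2 was the highest. A cystathionine gamma-synthase (CTHT_0048260), which joins cysteine to a homoserine ester on the way to methionine, had 6686, 10711 and 7062 in xylose, 1049.9, 994 and 1109.7 in glucose and 2487, 1149.9 and 1884 in the reference. Reference replicate 2 was close to glucose replicate 3. The ratios of xylose to glucose were 4.78 for homocitrate synthase and 7.76 for cystathionine gamma-synthase.

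CTHT_0032600 is named for the fused carbamoyl-phosphate synthase and aspartate carbamoyltransferase, the enzyme that commits carbon to pyrimidines, and had 12922, 24796 and 16266 in xylose, 3764, 3436 and 3814 in glucose and 6923, 7331 and 10333 in the reference. Its glucose libraries lay close together, and its mean in glucose was 0.448 of that in the reference. Pseudouridine 5'-phosphatase (CTHT_0031120), which acts on the breakdown products of modified RNA, averaged 1475 ± 434 in xylose, 261 ± 24.5 in glucose and 719.8 ± 86.6 in the reference (SD, n = 3 each).

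In the pathways of lysine and pyrimidine synthesis, most of the other named enzymes were called higher than in the reference in both sugars. Of 3 other genes for lysine, 3 were called higher in xylose and 2 in glucose, and of 5 other genes for pyrimidines, 4 were called higher in xylose and 4 in glucose. Homoisocitrate dehydrogenase (CTHT_0055150), a later enzyme of lysine synthesis, had 14261, 29723 and 24621 in xylose, 7826, 7566 and 12148 in glucose and 992, 3045 and 661 in the reference. It was called above the reference in xylose, on the log2 scale by 3.95 ± 0.58 (edgeR, adjusted p = 0.000138), and in glucose, by 2.53 ± 0.54 (edgeR, adjusted p = 0.00314), each in 9 of 9 fits that left out 1 library. The saccharopine dehydrogenase-like gene CTHT_0065790, of the last steps of the same pathway, had 16866, 19974 and 22716 in xylose, 4162, 3302 and 4195 in glucose and 257, 1463 and 200.2 in the reference. Its log2-fold changes were 5.04 ± 0.71 (edgeR, adjusted p = 0.000106) in xylose and 2.59 ± 0.63 (edgeR, adjusted p = 0.00622) in glucose. In both genes reference replicate 2 stood above the other reference libraries. A second saccharopine dehydrogenase, CTHT_0060440, was called higher in xylose, with 2.17 ± 0.41 (edgeR, adjusted p = 0.000831), but its change in glucose, 0.33 ± 0.40 (edgeR, adjusted p = 0.507), was within the spread between replicates. That spread came largely from reference replicate 2, with 3464, 9763 and 3467 in the reference against 7988, 6652 and 6668 in glucose. The change in glucose was called in 1 of 9 fits that left out 1 library. For pyrimidines, orotate phosphoribosyltransferase (CTHT_0029650) had 6715, 16782 and 9565 in xylose, 1974, 1968 and 2568 in glucose and 209, 798 and 188 in the reference. Its log2-fold changes were 4.87 ± 0.60 (edgeR, adjusted p = 4.51e-05) in xylose and 2.43 ± 0.54 (edgeR, adjusted p = 0.00384) in glucose. The gene named for dihydroorotate, CTHT_0037330, also rose in both sugars, by 2.70 ± 0.36 (edgeR, adjusted p = 7.71e-05) in xylose and 2.35 ± 0.35 (edgeR, adjusted p = 0.000446) in glucose. The dihydroorotase-like CTHT_0063400 rose in xylose by 1.96 ± 0.24 (edgeR, adjusted p = 3.84e-05), and its change in glucose, 0.60 ± 0.23 (edgeR, adjusted p = 0.046), was called in only 3 of 9 fits that left out 1 library. Last in the pathway, orotidine 5'-phosphate decarboxylase (CTHT_0006880) was called lower in xylose, at -1.06 ± 0.35 (edgeR, adjusted p = 0.0197). This call was lost without xylose replicate 3. Uridylate kinase (CTHT_0054350), which acts on the product of the pathway, had 4044, 4088 and 5341 in xylose, 5070.0, 5938 and 7288 in glucose and 2422, 3081 and 2326 in the reference, and both sugars were called higher than the reference in 9 of 9 such fits (edgeR, adjusted p = 0.00893 in xylose and 0.00255 in glucose). These lists were drawn up after the members were known, and whether a member's change in glucose differs from that of another gene of its pathway was not tested.

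**Figure D4:**
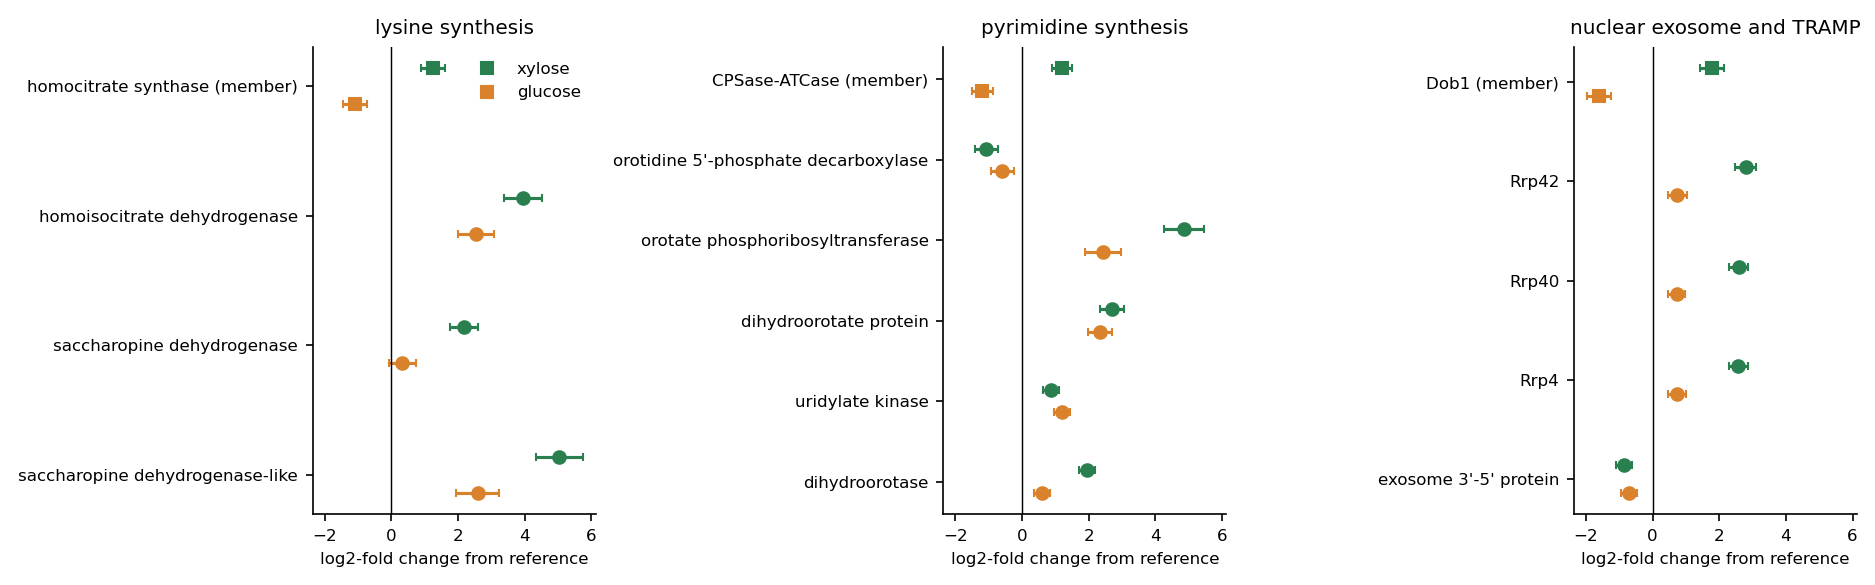
Log2-fold changes from the reference in xylose (green) and glucose (orange) with standard errors from the edgeR fit (3 libraries per condition), for the named genes of lysine synthesis, pyrimidine synthesis and nuclear RNA decay. Squares are members, whose values the rule fixed on either side of 0, and circles the other genes, of which homoisocitrate dehydrogenase has 3.95 in xylose and 2.53 in glucose.

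Of 9 other genes named for sulfur amino acid synthesis, 5 were called higher and 2 lower in xylose than in the reference, and 4 higher and 2 lower in glucose. Over all genes tested, these shares were 32.3% higher and 32.4% lower in xylose, and 24.0% higher and 25.4% lower in glucose. In 2 of the 9 the means ran in the order of the members, as they did in 12.9% of all genes tested. Cystathionine gamma-lyase (CTHT_0061090) averaged 20481 in xylose, 7392 in glucose and 11714 in the reference, with no change from the reference called. Homoserine O-acetyltransferase (CTHT_0004280) averaged 2787, 1105 and 1917. Its change in glucose, -0.82 ± 0.27 (edgeR, adjusted p = 0.0283), was called in 5 of 9 fits that left out 1 library, and its change in xylose was not called. A further cystathionine gamma-synthase (CTHT_0057200), by its KEGG name the same enzyme as the member, had 3003, 1529 and 3173 in xylose, 1041, 860.1 and 1263 in glucose and 701, 492 and 700.1 in the reference. Its glucose libraries were above its reference libraries, with a log2-fold difference of 0.71 ± 0.31 (edgeR, adjusted p = 0.0755) that did not pass the threshold, and it rose in xylose by 2.10 ± 0.32 (edgeR, adjusted p = 0.000185). How reads on similar genes were shared is not stated, so the counts of these paralogs carry that uncertainty.

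Names of carbohydrate-active or sugar enzymes were found for 4 members. Their number depends on the rule, which leaves out further genes of this kind by name, among them a beta-xylanase (CTHT_0050050) and a putative cellulose binding protein (CTHT_0003950) that met all its criteria. Acetylxylan esterase (CTHT_0050130), which removes acetyl groups from xylan and is also described as a putative cellulose binding protein, had 2586, 5041 and 2284 in xylose, 427, 439.6 and 338 in glucose and 1648, 1054 and 1003 in the reference. Xylose replicate 2 was about 2 times each of the other xylose libraries, and the mean in xylose was 8.23 times that in glucose. Hexokinase (CTHT_0057190), which phosphorylates glucose at the entry to glycolysis, had 2416, 1548 and 2931 in xylose, 699.9, 616 and 697 in glucose and 997, 1477 and 987 in the reference. Its reference replicate 2 lay just under xylose replicate 2, which made it one of the 3 members closest to an overlap of these conditions, and its mean in glucose was 0.582 of that in the reference. An alpha-1,2-mannosidase (CTHT_0016550), of a family that trims the sugar chains of secreted proteins, averaged 1308 ± 276 in xylose, 289.7 ± 40.3 in glucose and 750.0 ± 82.2 in the reference (SD, n = 3 each). The phosphoglycerate mutase-like CTHT_0015180 had 2005, 1438 and 1314 in xylose, 191, 135 and 41.4 in glucose and 546, 245 and 394 in the reference. Glucose replicate 3 was far below the other glucose libraries.

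Among 46 other genes named for polysaccharide hydrolases, of which 45 were tested, 4 were called higher and 23 lower in xylose than in the reference, and 5 higher and 27 lower in glucose (edgeR). Their median log2-fold changes were -0.99 in xylose and -1.08 in glucose. Of these 46, the beta-xylanase CTHT_0050050 and the cellulose binding protein CTHT_0003950 met the rule and are left out by name, with ratios of xylose to glucose of 14.1 and 28.7. A second alpha-1,2-mannosidase (CTHT_0068950) missed it, with 1615, 713 and 689 in xylose, 317, 249 and 183 in glucose and 714, 451 and 591 in the reference. The xylose libraries reached down to the reference libraries. Of 9 genes named as sugar transporters, 0 were members and 6 were called lower in xylose than in the reference, as were 6 in glucose (edgeR). The Na+-exporting ATPase (CTHT_0020740), a pump of the plasma membrane, had 16134, 7442 and 10150.3 in xylose, 712, 657 and 919.8 in glucose and 3760.1, 1549 and 2518 in the reference. The ABC transporter CTHT_0059190 had 5930.4, 2301 and 3224 in xylose, 456, 324 and 173 in glucose and 1804, 1225 and 1736 in the reference. In both, xylose replicate 1 was the highest, and the ABC transporter had the lowest glucose level relative to the reference of all members, at 0.200.

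DNA replication, repair and chromatin came next, with 11 members and the smallest median ratio of xylose to glucose among all groups named, 4.11. Tof1 (CTHT_0029130), which in yeast protects stalled replication forks, had 1198, 482 and 664 in xylose, 143, 68.6 and 31.1 in glucose and 199.9, 292 and 281 in the reference. The glucose libraries of this gene differed most among all members, and its ratio of xylose to glucose was 9.67 with and 15.7 without glucose replicate 1. MCM7 (CTHT_0057240), a subunit of the replicative helicase, had 1561, 1147 and 1691 in xylose, 619, 471 and 295 in glucose and 1002, 724 and 769 in the reference, with no overlap and glucose replicate 3 the lowest. The Rad5 gene (CTHT_0071680), for a helicase of DNA damage tolerance, had 1386, 1904 and 1351 in xylose, 340.4, 246 and 152 in glucose and 420.4, 572 and 377 in the reference. Every xylose library was over 2 times every reference library. Of the other repair genes, DNA topoisomerase III (CTHT_0025350), which untangles recombining strands, averaged 300.3 ± 129.8 in xylose, 66.3 ± 33.3 in glucose and 152 ± 50.6 in the reference (SD, n = 3 each). DNA polymerase IV (CTHT_0052790), the ERCC-6-like helicase CTHT_0062360 and the polynucleotide phosphatase/kinase CTHT_0021000, which prepares broken DNA ends, had ratios of xylose to glucose of 4.11, 3.97 and 2.56, the last being the smallest of the 74.

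Chromatin proteins among the members had ratios between 2.99 and 4.32. Chromatin assembly factor 1 subunit B (CTHT_0059200), which places histones on new DNA, had 1754, 1373 and 1333 in xylose, 537, 371 and 124 in glucose and 984, 604 and 1009 in the reference. Glucose replicate 3 was far below the other glucose libraries. The chromo domain protein CTHT_0004800 averaged 504 ± 131 in xylose, 119 ± 43.0 in glucose and 277 ± 73.2 in the reference (SD, n = 3 each), and its lowest xylose library was only 1.02 times its highest reference library. Vps72 (CTHT_0069920), which in yeast belongs to the complex that exchanges a histone variant, and a SWI/SNF-related ATPase (CTHT_0046320) had ratios of xylose to glucose of 3.31 and 2.99. A list by words for the MCM helicase and the replication fork held 3 other genes. Of these, the subunit 1 of replication factor C (CTHT_0013800), which loads the sliding clamp, and Dpb11 (CTHT_0071800), which helps start replication, were called lower in glucose. Their log2-fold changes from the reference were -1.39 ± 0.37 (edgeR, adjusted p = 0.00968) and -1.64 ± 0.34 (edgeR, adjusted p = 0.00283), each called in 9 of 9 fits that left out 1 library. In xylose their log2-fold changes were 0.13 ± 0.36 (edgeR, adjusted p = 0.765) and 0.04 ± 0.33 (edgeR, adjusted p = 0.924), within the spread between replicates. The remaining gene, Psf1 (CTHT_0058080) of the GINS complex, which travels with the replicative helicase, was called higher in both sugars, at 0.99 ± 0.27 (edgeR, adjusted p = 0.00728) in xylose, kept in 9 of 9 such fits, and 0.72 ± 0.27 (edgeR, adjusted p = 0.0441) in glucose, kept in 3 of 9. Not on the list was the gene for DNA polymerase epsilon subunit 1 (CTHT_0018940), which averaged 1731 in xylose, 265 in glucose and 721 in the reference. It passed both folds and the level, and missed the rule because a xylose library lay below a reference library.

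**Figure D5:**
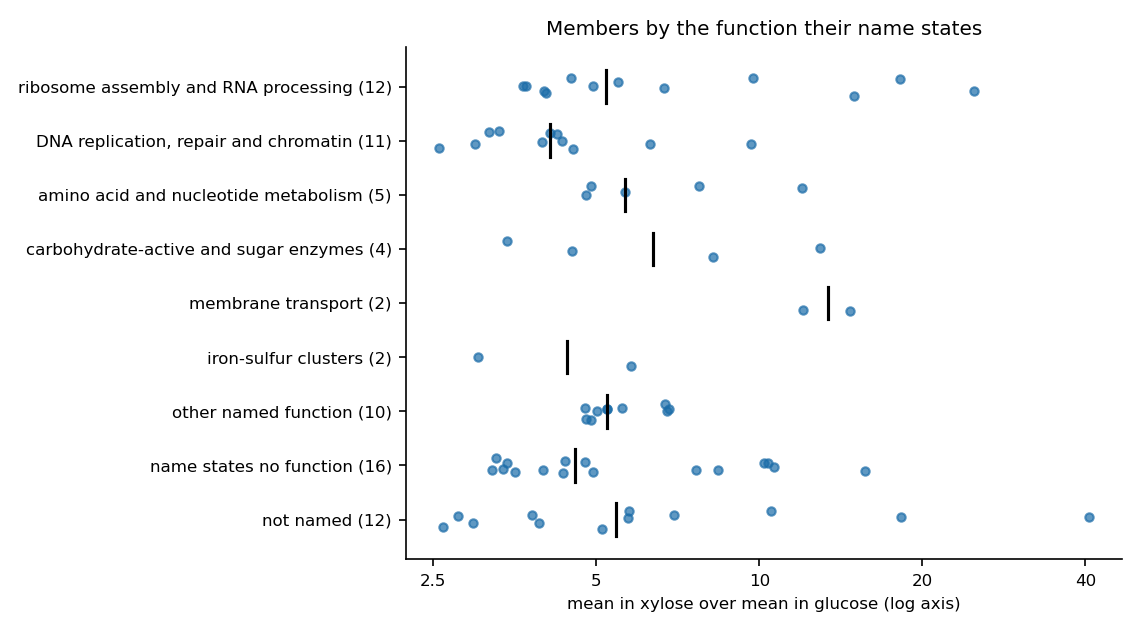
Ratio of the mean in xylose to the mean in glucose (log axis) for each of the 74 members (points), by the function that its name states, with medians as vertical lines and the number of members in brackets. Medians range from 4.11 for DNA replication, repair and chromatin (11 members) to 13.4 for membrane transport (2 members), and the points of the groups overlap widely.

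In 2 members the names point to iron-sulfur clusters. The scaffold protein ISCU (CTHT_0047420), on which clusters are built in mitochondria, had 4071, 7962 and 4618 in xylose, 2248, 1719 and 1538 in glucose and 3429.9, 3564 and 2674 in the reference. The ferredoxin hydrogenase-like CTHT_0054730 had 908, 988 and 1083 in xylose, 182, 153 and 178 in glucose and 196, 623 and 653 in the reference. Reference replicate 1 of CTHT_0054730 was close to its glucose libraries and far below the other reference libraries. A list by words for iron-sulfur cluster assembly held 3 other genes. Of these, frataxin (CTHT_0015430), which helps load iron, was called higher in both sugars, by 1.93 ± 0.33 (edgeR, adjusted p = 0.000424) in xylose and 1.60 ± 0.33 (edgeR, adjusted p = 0.00255) in glucose. The assembly protein gene CTHT_0000960 was called lower in both, at -0.68 ± 0.25 (edgeR, adjusted p = 0.0319) in xylose, kept in 4 of 9 fits that left out 1 library, and at -0.88 ± 0.25 (edgeR, adjusted p = 0.0134) in glucose, kept in 7 of 9. The remaining gene of the list was called in neither. Not on the list was the iron-sulfur protein gene CTHT_0047550, which averaged 4417 in xylose, 1965 in glucose and 2991 in the reference. Its libraries were in the order of the rule, and it missed only the fold between xylose and the reference, at 1.48.

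The remaining 10 named members had diverse functions and ratios of xylose to glucose between 4.76 and 6.82. The hexBP-like gene CTHT_0063610, for a nucleic acid-binding protein, had 13186, 15869 and 18722 in xylose, 2595, 2850.5 and 1558 in glucose and 3541, 4422 and 5386 in the reference, with no overlap and glucose replicate 3 the lowest. The phosphatase Ssu72 (CTHT_0060370), which acts on the tail of RNA polymerase II, had 2658, 3736 and 1755 in xylose, 464, 392 and 361 in glucose and 1277, 924 and 1172 in the reference, with glucose libraries that agreed closely. Conditions were less clearly apart in the PHD zinc finger gene CTHT_0010100, with 1221, 1071 and 1043 in xylose, 323, 188 and 128 in glucose and 788, 368 and 793 in the reference, where reference replicate 2 was near glucose replicate 1. Atg101 (CTHT_0023220), which helps start autophagy, averaged 561 ± 135 in xylose, 112 ± 34.4 in glucose and 313 ± 76.7 in the reference (SD, n = 3 each). The nucleoporin Nup84 (CTHT_0059480), of the outer ring of the nuclear pore, averaged 4575 ± 255, 961 ± 447 and 1907 ± 339 in the same order of conditions. The other members of this kind were the putative DNA-binding protein CTHT_0016790, a ubiquitin hydrolase (CTHT_0028890), an HD-motif phosphohydrolase (CTHT_0036300), a protein arginine methyltransferase (CTHT_0008800) and a fatty acid elongase (CTHT_0026280), with ratios of 6.75, 5.59, 5.25, 4.89 and 4.79. With 76 genes named for DNA binding or transcription, 3 of them members, the other 73 were mostly called lower in both sugars: 5 were called higher and 50 lower in xylose than in the reference, and 9 higher and 48 lower in glucose (edgeR).

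No function was named for 28 members. Of these, 16 were listed without a stated function, among them the pseudogene CTHT_0011790, and 12 had no name. CTHT_0049290, an uncharacterized protein, had 26680.4, 48519 and 28032 in xylose, 3730.2, 2712 and 3657 in glucose and 20962, 5625 and 8604 in the reference. Reference replicate 1 was over 2 times each of the other reference libraries, and without it the mean in xylose was 4.79 instead of 2.93 times that in the reference. CTHT_0022510, without a name, had 2087, 1606 and 1059 in xylose, 163, 157 and 131 in glucose and 395, 167 and 255 in the reference. Its reference and glucose libraries almost met while the mean in xylose was 5.81 times that in the reference. In CTHT_0012550 the step below the reference was the larger, with 2134, 1829 and 1942 in xylose, 372, 222 and 109 in glucose and 1043, 611 and 1134 in the reference and a mean in glucose of 0.252 of that in the reference. CTHT_0034360 was uneven in xylose, with 1345, 345 and 598, against 129.7, 146 and 123 in glucose and 236, 235 and 221 in the reference, and its ratio of xylose to glucose of 5.74 became 3.58 without xylose replicate 1. A second noncoding RNA entry, ENSRNA049505871, had 562, 617 and 793 in xylose, 179, 146 and 192 in glucose and 281, 511 and 255 in the reference. Its reference replicate 2 stood near xylose replicate 1.

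Among the other members without a stated function, the uncharacterized protein CTHT_0055240 had 1133, 534 and 392 in xylose, 90.5, 52.4 and 50.0 in glucose and 271, 206 and 192 in the reference. Xylose replicate 1 was over 2 times each of the other xylose libraries. CTHT_0069190, likewise uncharacterized, had 1251, 2120.4 and 1187 in xylose, 215, 142 and 82.8 in glucose and 694, 433 and 489 in the reference, with all conditions well apart. In CTHT_0067320, for which no name was at hand, the reference libraries agreed closely while xylose replicate 2 stood out: the values were 1793, 5118 and 2664 in xylose, 719.9, 641 and 504 in glucose and 999, 954 and 983 in the reference. CTHT_0064680 had 1209, 1945 and 2023 in xylose, 309, 379 and 506 in glucose and 769, 864 and 533 in the reference, so that glucose replicate 3, the lowest glucose library for most members, was here the highest. The smallest ratios of xylose to glucose in this set belonged to CTHT_0027870, CTHT_0036570 and CTHT_0002230, at 2.61, 2.78 and 2.96. CTHT_0050590, CTHT_0069410, CTHT_0072860, CTHT_0066130, CTHT_0048520, CTHT_0007080, CTHT_0053440, CTHT_0021190, CTHT_0030390, CTHT_0039570, CTHT_0001390 and the pseudogene had ratios between 3.21 and 7.63.

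By the lower step, the 5 members with the smallest glucose level relative to the reference were the ABC transporter CTHT_0059190, Utp15, ENSRNA049505315, CTHT_0012550 and CTHT_0043230, at 0.200, 0.233, 0.248, 0.252 and 0.271. Without glucose replicate 1, CTHT_0043230 was at 0.172. By the upper step, the 5 largest were CTHT_0064080, the rRNA processing gene CTHT_0025450, Imp3, CTHT_0022510 and isopropylmalate dehydratase, with xylose means 17.2, 9.43, 7.59, 5.81 and 4.69 times the reference mean.

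Close to the thresholds, the fold between xylose and the reference was 1.503 for CTHT_0001390, 1.56 for CTHT_0021190 and 1.60 for the polynucleotide phosphatase/kinase CTHT_0021000 just inside, and 1.48 for the iron-sulfur protein gene CTHT_0047550, 1.43 for CTHT_0017440 and 1.43 for the sideroflexin gene CTHT_0022300 just outside. The fold between the reference and glucose was 1.53 for CTHT_0036570, 1.54 for CTHT_0027870 and 1.56 for CTHT_0053440 inside, and 1.499 for CTHT_0046120, 1.48 for CTHT_0018210 and 1.48 for CTHT_0034740 outside. By mean level in xylose, ENSRNA049505315, CTHT_0006830 and CTHT_0025350 had 193, 201 and 300.3 scaled counts inside, and CTHT_0001070, ENSRNA049505326 and CTHT_0006100 had 85.9, 76.7 and 17.9 outside, so the level hardly mattered. Library overlap mattered more, since 83 genes passed both folds and the level but not the order of libraries. The lowest xylose library was 1.00 times the highest reference library for the elongase CTHT_0026280, 1.02 for the chromo domain gene and 1.05 for hexokinase, and 0.980 for CTHT_0023920, 0.966 for the mannosidase CTHT_0068950 and 0.965 for the DNA polymerase epsilon gene CTHT_0018940 outside. The lowest reference library was at most 1.006 times the highest glucose library for CTHT_0066130, CTHT_0048520 and CTHT_0007080 inside, and at least 0.995 times for CTHT_0060410, CTHT_0016610 and CTHT_0048530 outside.

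Gene length and position were not part of the rule. Annotated spans of the 71 protein-coding members had a median length of 1938 bases, against 1527 bases for all 7164 protein-coding genes in RefSeq (assembly CTHT_3.0). Per kilobase of span, the median member had 783 scaled counts in xylose, 167 in glucose and 334 in the reference, where the medians of all tested genes with a length were 775, 739 and 763. The median member stood above 50.3% of the tested genes in xylose, 18.9% in glucose and 29.1% in the reference, an order of conditions that the rule itself fixed. On this scale homocitrate synthase had the highest level of any member in xylose, with 25382 scaled counts per kilobase, and 5309 in glucose and 11141 in the reference, and among the 72 members with a length CTHT_0006830 had the lowest, with 54.7, 7.88 and 12.4. By order of locus tags, 4 of the 72 members with a tag (5.56%) were the next gene, or the next but 1, of another member, and 3.80% of all tags were that near to a member. These were the splicing gene Slu7 beside the pseudogene CTHT_0011790, and the ABC transporter CTHT_0059190 beside chromatin assembly factor 1 subunit B. Their annotated spans did not overlap.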

How the data were processed

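Per the study's methods, the authors checked reads with FastQC, aligned 50-base reads with Tophat2 (introns of 40 to 5000 bases), used the Ensembl release 28 annotation and deposited raw counts from summarizeOverlaps. Versions, counting mode and use of strand are not given in the sources used here, so reads on overlapping genes are uncertain. Size factors rested on 6503 genes. The test was edgeR 4.0.16's quasi-likelihood F-test (R 4.3.3, limma 3.58.1) with 1 model for the 3 conditions, TMM scaling, filterByExpr (minimum count 10), Benjamini-Hochberg adjustment over 6904 genes and a threshold of 0.05, and it was run on simulated counts, where it called 77 of 100 genes changed 4 times, 17 of 100 changed 2 times and 5 unchanged genes. The genes changed in the simulation were far fewer than those called in the data. DESeq2 1.42.0, other scaling, no filter, a replicate block and leaving out each library were alternatives.

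The members and lists were chosen with earlier results of these data known. The text names the 10 members with the largest ratio of xylose to glucose, the 5 with the largest steps on either side of the reference, members with a named function, genes on either side of each threshold, neighbours, and list genes that work beside members. Some of these list genes were picked because their means passed both folds of the rule. Product names come from the study's tables, whose values were not used, and gene lengths from RefSeq assembly CTHT_3.0, which matched 7472 genes. The search for promoter motifs was not run, since no promoter sequences were used here. Under 50 counts in some library were found in 14 members, whose values are the least precise.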

Additional observations from a re-analysis of the deposited data

How the results depend on the processing

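The 74 genes depended on the rule's own settings. Requiring folds of 2 left 29, a smaller fold left 106, allowing libraries to overlap left 155, and minimum means of 50 and 200 left 76 and 73. With TMM scaling 87 genes met the rule, 71 of them among the 74, and with total counts 67 did, 47 among the 74. Leaving out 1 library gave between 70 (without glucose replicate 3) and 138 genes (without glucose replicate 1), with 136 without reference replicate 2. A smaller number of libraries is also easier to keep apart. In all 9 of these settings 48 members were kept, and 26 were lost in at least 1.

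Over all genes, the edgeR fit called 3504 genes between xylose and glucose, 4463 between xylose and the reference and 3416 between glucose and the reference. DESeq2 called 3742, 4670 and 3713, median-of-ratios scaling 3437, 4490 and 3402, no filter 3427, 4503 and 3431, and leaving out 1 library 2682 to 3861, 4016 to 4664 and 2522 to 3837. With the replicate number as a block, 3374, 4399 and 3343 genes were called. Whether the numbers pair the libraries was not settled. Correlations of same-numbered libraries ranged from -0.281 to 0.289, and those of differently numbered libraries from -0.249 to 0.285. The pairs of replicate 1 were all positive, at 0.289, 0.208 and 0.169, so a link among these libraries cannot be told from the values. With 3 libraries per condition, folds of 2 were seldom recovered in simulated counts. Far fewer genes were changed there than were called in these data, which makes the adjusted threshold stricter, so that share does not carry over.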

Other observations

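Further lists of named genes that hold members or stand close to their functions gave the following counts by edgeR's quasi-likelihood test, beside a median log2-fold change of 0.16 (xylose to glucose), -0.05 (xylose to reference) and -0.05 (glucose to reference) over all genes tested. Of all genes tested, 32.3% were called higher and 32.4% lower in xylose than in the reference, and 24.0% higher and 25.4% lower in glucose. Counts near these shares are no result about a list. Cytosolic ribosomal proteins, the products that the assembly factors handle, held no member among 87 genes: 86 were called higher and 1 lower in xylose than in the reference, and 59 were called higher and 1 lower in glucose. Their median log2-fold changes were 3.21 in xylose and 1.76 in glucose. Among 31 genes for tRNA ligases and tRNA modification besides the 2 members, 26 were called higher and 1 lower in xylose than in the reference, and 24 higher and 2 lower in glucose. For 8 RNA helicases besides Dob1, 4 were called higher and 1 lower in xylose, and 1 higher and 6 lower in glucose. Of the 2 other subunits of RNA polymerases I and III, 2 were called higher in xylose and 1 in glucose.

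Other nuclear functions were also counted. Of 22 genes for pre-mRNA splicing besides Slu7 and Prp8, 13 were called lower and 2 higher in glucose than in the reference, and 5 higher and 4 lower in xylose. Nucleoporins besides Nup84 numbered 12, with 7 called lower and 4 higher in glucose, and 5 higher and 1 lower in xylose. For 11 genes of chromatin assembly and remodelling besides 3 members, 8 were called lower and 1 higher in glucose, and 2 higher and 3 lower in xylose. The lists of splicing, nuclear pore and chromatin genes were drawn up after the members were known, and whether one list differs from another was not tested.

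The other lists with no member were as follows. All 11 amino acid transporters and permeases were called lower in xylose than in the reference and 10 of them in glucose. Pentose catabolism, with 8 genes, had 6 called higher and 1 lower in xylose, and 5 higher and 2 lower in glucose. In 1 of these 8 genes the means passed both folds of the rule, as in 1 gene each of the mitochondrial carriers and iron uptake. Of all genes tested, 2.59% passed both folds. Xylitol dehydrogenase, an enzyme of pentose catabolism, is among the genes that the rule leaves out by name. Mitochondrial carriers had 5 of 15 called higher and 6 lower in xylose, and 4 higher and 10 lower in glucose. Iron uptake had 1 of 8 higher and 1 lower in xylose, and 2 higher and 6 lower in glucose, and of 3 genes for RNA silencing 2 were called lower in xylose and 2 in glucose.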
